A study of Mus musculus with 6 samples.

Results

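The genes described here encode the proteasome: its subunits, their alternative forms in testis and immune cells, the activators that cap it, its inhibitor and its assembly chaperones. They were chosen by name alone, as the protein-coding entries of the deposited table whose symbol is Psma, Psmb, Psmc, Psmd, Psme, Psmf or Psmg followed by a number. The rule found 48 genes among 55711 entries, of which 22046 are protein-coding. The rule itself uses no measured value.

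RNA of whole mouse testis was sequenced from 3 samples labelled Tmc7 knockout and 3 labelled heterozygote, all of strain C57BL6. Tmc7 encodes a transmembrane channel-like protein, and the study asked what its loss does to testis gene expression. The heterozygotes are the controls, so every sample carries at least 1 mutant Tmc7 allele by its label and no wild-type testis was analysed here. The labels give neither age, nor the nature of the allele, nor whether each library is 1 animal. The spread behind each p-value is therefore that between these libraries, and it may be technical.

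The proteasome is the barrel-shaped protease that degrades proteins tagged with ubiquitin. Its 20S core is a stack of rings of alpha and beta subunits, and the regulatory 19S particle recognises, unfolds and feeds in the substrates. In male germ cells the alpha subunit Psma8 takes the place of Psma7 in part of the particles, which are then called spermatoproteasomes. The activator Psme4 is known for its part in the degradation of histones as spermatids elongate. Immune cells and interferon-treated cells replace the catalytic beta subunits by Psmb8, Psmb9 and Psmb10.

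Values are FPKM, fragments scaled by gene length and by a library size, and those of a group are given in the order of replicates 1, 2 and 3. Depth, worked back from the FPKM values, was 17397662 to 19343479 reads in the knockout libraries and 17059486 to 18629233 reads in the heterozygote libraries. The library size implied by the values was not this read total. It was 19497384 against 18140921 reads in knockout 3, and 16450310 against 17059486 reads in heterozygote 1. In all 6 libraries it equalled the median-of-ratios size factor times the geometric mean depth (ratio 1.0). The deposited values are therefore already scaled by such size factors. The proteasome genes held 0.519% to 0.548% of the reads in the knockout libraries and 0.522% to 0.548% in the heterozygote libraries. Tmc7 itself had 43.8, 41.9 and 35.1 FPKM in the libraries labelled knockout and 39.1, 37.7 and 37.2 FPKM in the heterozygote libraries. Its RNA was thus not lower in the libraries labelled knockout, and the groups overlapped. The labels do not say whether the allele removes the transcript, so Tmc7 RNA does not check the labels, and "knockout" below stands for the library labelled so. Small and ribosomal RNA genes took 0.09%, 0.33% and 0.28% of the reads in the knockout libraries, against 0.10% in each heterozygote library.

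Differences are log2(FPKM + 1) in knockout minus heterozygote, with their standard error (SE) from limma, fitted over the 19168 genes whose mean reached 0.5 FPKM. A difference was called at a Benjamini-Hochberg adjusted p under 0.05. Of the 48 proteasome genes 46 reached that mean, all but Psmb9 and Psmb11. None of the 46 was called, with adjusted p of 0.868 to 0.997 in limma. Over all tested genes 0% were called higher and 0% lower, with no adjusted p below 0.328. By unadjusted p under 0.05, the fit gave 1 proteasome gene higher, Psmb10, and 0 lower, which is 2.17% of the 46, against 1.48% of all tested genes higher and 2.38% lower, 3.87% together.

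Of the tested proteasome genes 27 were higher and 19 lower in value in knockout testes, with a median difference of 0.03 and a range of −0.37 to 0.37. The median over all tested genes was −0.01, and 48.6% of them were positive. The median SE was 0.11 for the proteasome genes and 0.14 for all tested genes. Knockout and heterozygote values did not overlap for 5 of the 46, which is 10.9%, against 8.56% of all tested genes, so the share is near the background. Psmb2, Psmb10, Psmd6 and Psmg3 lay higher in every knockout library (4.15% of all tested genes did) and Psma4 lay lower (4.41% of all tested genes did). The 95% interval of the difference held 0 for 45 of the 46, all but Psmb10.

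**Figure D1:**
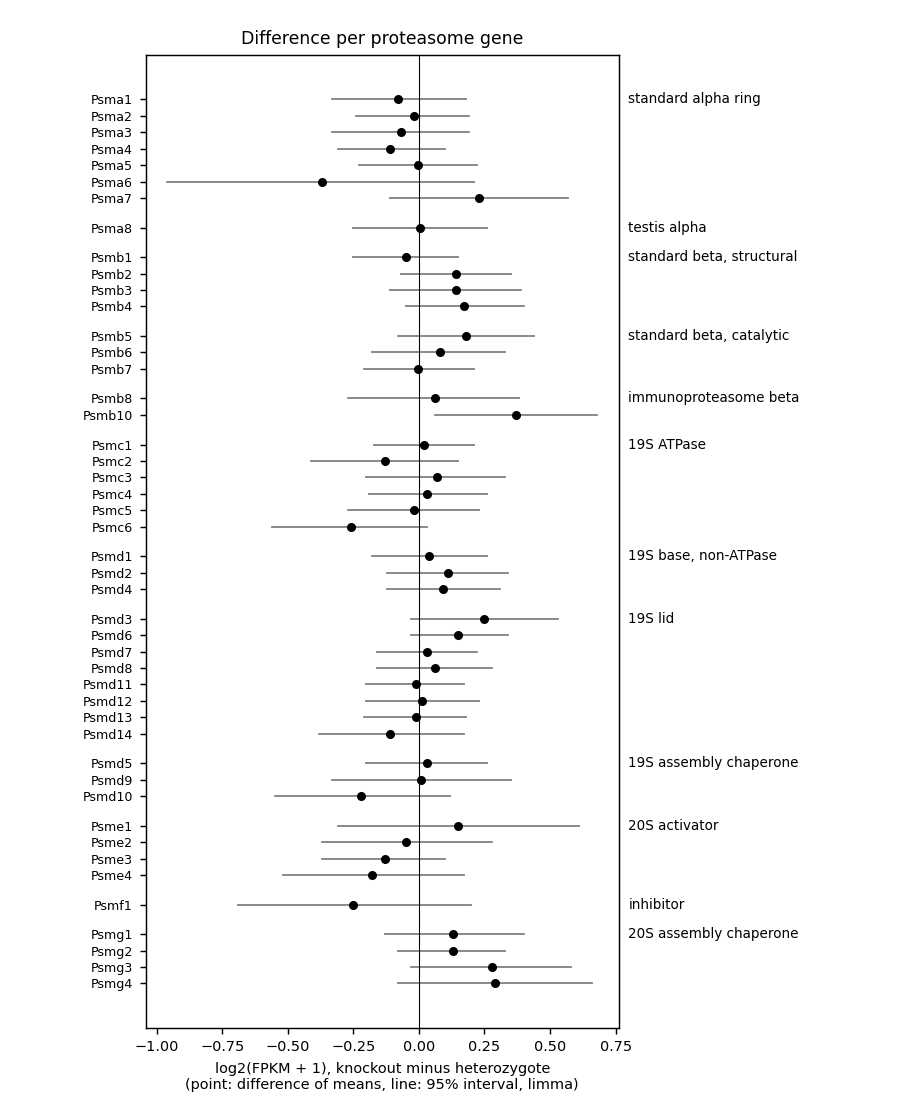
Difference in log2(FPKM + 1), knockout minus heterozygote, for the 46 tested proteasome genes (point) with its 95% interval from limma (line), by class from top to bottom. The points lie between −0.37 and 0.37, and only the interval of Psmb10 does not reach 0.

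The standard alpha ring forms the gate of the core. Its 7 genes had mean levels of 7.71 to 217 FPKM, and 6 of the 7 were lower in value in knockout testes, with a median difference of −0.07. Psma6, an alpha ring subunit, was the highest of them by far. It had 277, 152 and 150.3 FPKM in the knockout libraries and 275, 227 and 221 FPKM in the heterozygote libraries. Knockout 1 was the highest library of all and knockout 2 and 3 the lowest, so the groups overlapped. The difference was −0.37 (SE 0.25, 95% interval −0.96 to 0.21, limma adjusted p = 0.868). Without knockout 1 it was −0.66 (limma adjusted p = 0.148), and it was −0.23 without knockout 2, −0.22 without knockout 3 and −0.27 without heterozygote 1.

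Psma7, the standard subunit that Psma8 replaces, had the lowest mean FPKM of the ring by the deposited gene length, with 6.68, 9.26 and 9.34 FPKM in the knockout libraries and 7.13, 6.22 and 7.64 FPKM in the heterozygote libraries. Knockout 2 and 3 were the highest libraries, and knockout 1 lay within the heterozygote range. The difference was 0.23 (SE 0.14, 95% interval −0.11 to 0.57, limma adjusted p = 0.868). It was 0.37 without knockout 1, against 0.16 without knockout 2, 0.15 without knockout 3 and 0.16 without heterozygote 2. Psma1, Psma2, Psma3, Psma4 and Psma5, the other alpha subunits, differed by −0.11 to −0.0025. Of these, Psma4 had its knockout libraries at 19.6 to 22.2 FPKM, all under the heterozygote libraries at 22.6 to 23.7 FPKM, a difference of −0.11 (SE 0.09).

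Because Psma6 stood so far above its ring partners, its promoters are shown. The RefSeq promoter table of build GRCm38.p6 holds 2 starts for it, each with a window running from 250 bases before the start to 50 after it, on the plus strand of chromosome 12. The first window is chr12:55383972-55384271 and the second chr12:55398575-55398874. The capitals mark CCAAT boxes, read on either strand, at −136 and −29 from the start in the first window. The second holds none of the 4 motifs searched.
Psma6, first start: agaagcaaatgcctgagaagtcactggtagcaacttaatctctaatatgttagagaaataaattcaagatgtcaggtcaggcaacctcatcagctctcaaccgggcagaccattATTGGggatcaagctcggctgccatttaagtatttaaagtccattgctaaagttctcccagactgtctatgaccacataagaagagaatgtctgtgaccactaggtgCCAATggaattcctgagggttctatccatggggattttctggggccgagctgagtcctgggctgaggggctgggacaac
Psma6, second start: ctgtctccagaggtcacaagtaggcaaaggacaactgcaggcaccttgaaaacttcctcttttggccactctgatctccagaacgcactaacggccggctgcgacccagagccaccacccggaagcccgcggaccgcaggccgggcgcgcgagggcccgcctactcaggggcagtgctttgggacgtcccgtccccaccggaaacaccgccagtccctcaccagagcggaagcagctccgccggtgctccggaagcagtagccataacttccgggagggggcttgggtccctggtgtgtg

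Psma8, the alpha subunit of the spermatoproteasome, was expressed at nearly the same level in both groups. The gene spans bases 14706151 to 14762299 of chromosome 18 in GRCm38, on the plus strand. It had 79.5, 65.3 and 76.2 FPKM in the knockout libraries and 71.0, 69.9 and 79.2 FPKM in the heterozygote libraries. Knockout 1 was the highest library and knockout 2 the lowest, with the heterozygote libraries between them. The means were 73.7 ± 7.41 FPKM in knockout and 73.4 ± 5.11 FPKM in heterozygote testes (SD, n = 3 each), a difference of 0.0036 (95% interval −0.25 to 0.26, limma adjusted p = 0.996). These values rest on 1918 to 2545 reads per knockout library and 1976 to 2577 reads per heterozygote library.

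In every library Psma8 lay well above Psma7 per kilobase. The ratio of their FPKM values was 11.9, 7.06 and 8.16 in the knockout libraries and 9.96, 11.2 and 10.4 in the heterozygote libraries. On the log2(FPKM + 1) scale the distance was 3.39, 2.69 and 2.90 in knockout and 3.15, 3.29 and 3.21 in heterozygote testes. Knockouts 2 and 3 had the smallest distances and knockout 1 the largest, so the groups overlapped. The difference between the groups was −0.22 (exact two-sided permutation test, p = 0.4), and −0.42 to −0.07 with 1 library left out. It was 1 of 5 such ratios tested, with a Benjamini-Hochberg adjusted p of 0.833 by the exact permutation test, and 3 against 3 cannot go below p = 0.1.

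The size of that ratio depends on the length by which reads are divided. The table's gene length for Psma7 is 3071 bases, which is 3.36 times the 914 bases of its principal transcript in GENCODE M21, while Psma8 has 1693 against 1692 bases. Per principal transcript the Psma8 to Psma7 ratio was 3.54, 2.10 and 2.43 in the knockout libraries and 2.97, 3.34 and 3.09 in the heterozygote libraries. Psma8 still lay above Psma7 in all 6 libraries. On that scale the mean of Psma7 was 25.9 FPKM, of Psma8 73.6 FPKM and of Psma6 257 FPKM, and the 6 standard alpha genes other than Psma6 lay between 10.8 and 45.1 FPKM. Psma2, Psma3 and Psma5, at 10.8, 15.6 and 25.3 FPKM, then lay below Psma7. Over all 48 genes the table's length was 1.0 to 3.36 times the principal transcript, with a median of 1.65, and more than 2 times for 16 genes. A rescaling by length moves levels between genes and leaves the ratio between groups for 1 gene as it is.

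**Figure D2:**
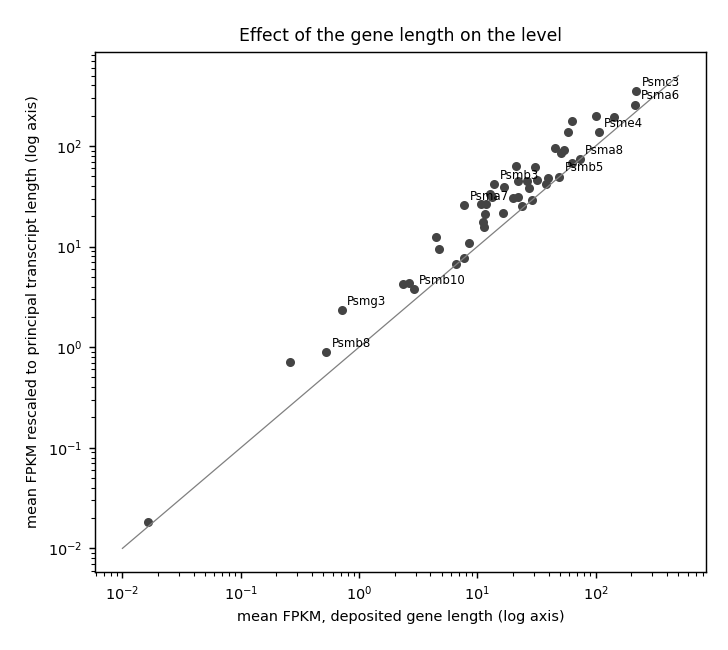
Mean FPKM over the 6 libraries with the deposited gene length (horizontal, log axis) against the same reads divided by the length of the principal GENCODE M21 transcript (vertical, log axis), 1 point per proteasome gene, with the line of equality. Psma7, Psmg3 and Psmb3 lie farthest above the line, and Psma8 and Psmb5 lie on it.

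**Figure D3:**
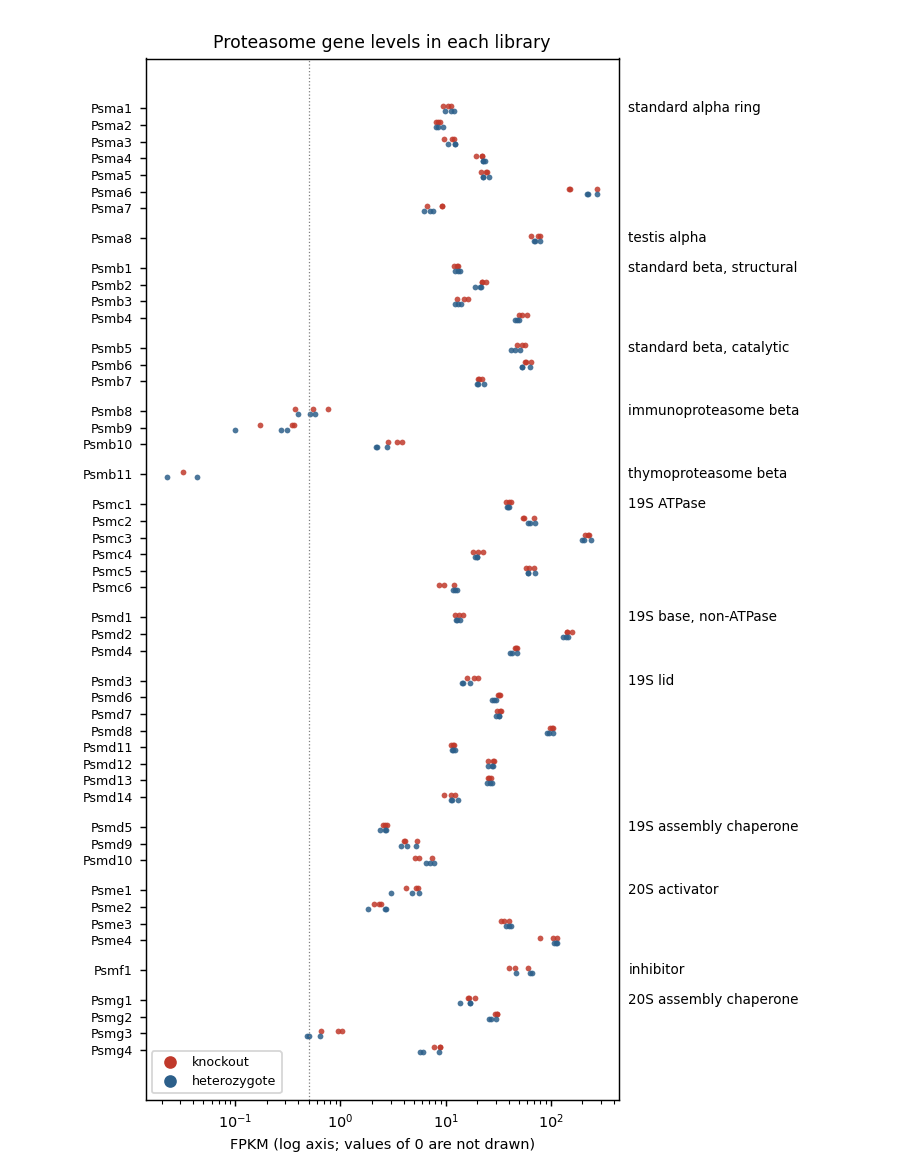
FPKM of the 48 proteasome genes in each library (log axis, values of 0 not drawn), knockout in the upper row of points and heterozygote in the lower, by class. The dotted line marks the mean of 0.5 FPKM needed for the test, and Psma6, Psmc3, Psmd2 and Psme4 lie farthest to the right.

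The beta rings hold the protease sites and, beside them, structural subunits. The 4 structural genes Psmb1, Psmb2, Psmb3 and Psmb4 were higher in value in knockout testes for 3 and lower for 1, with a median difference of 0.14. Psmb4, the highest of them, had 50.2, 53.3 and 59.5 FPKM in the knockout libraries and 50.3, 45.9 and 47.9 FPKM in the heterozygote libraries, where heterozygote 1 overlapped with knockout 1. Its difference was 0.17 (SE 0.10, limma adjusted p = 0.868). Psmb1, the lowest by the deposited gene length but above Psmb2 per principal transcript, had 13.003, 12.04 and 12.8 FPKM in the knockout libraries and 13.9, 12.3 and 13.2 FPKM in the heterozygote libraries, which overlapped. Psmb2 had 22.3 to 24.5 FPKM in knockout and 19.2 to 21.9 FPKM in heterozygote testes, without overlap, a difference of 0.14 (SE 0.09, limma adjusted p = 0.868).

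Of the standard catalytic subunits, Psmb5 carries the chymotrypsin-like site. It had 47.5, 56.4 and 53.6 FPKM in the knockout libraries and 51.4, 42.2 and 45.6 FPKM in the heterozygote libraries, where heterozygote 1 lay above knockout 1. The difference was 0.18 (SE 0.11, limma adjusted p = 0.868). Psmb6, which carries the caspase-like site, had 64.6, 57.6 and 57.9 FPKM in the knockout libraries and 64.2, 53.0 and 53.7 FPKM in the heterozygote libraries. In both groups library 1 was the highest, and the groups overlapped, with a difference of 0.08 (SE 0.11). Psmb7, which carries the trypsin-like site, had 22.1, 21.02 and 20.5 FPKM in the knockout libraries and 23.1, 20.1 and 20.6 FPKM in the heterozygote libraries, with overlap and a difference of −0.0023 (SE 0.09). The Psmb5 value is less certain than those of Psmb6 and Psmb7, since 71.7% of its words of 31 bases are shared with other genes, 59.8% with the processed pseudogene Gm3375. The genes sharing them had a summed mean of 1.585 FPKM, against 49.4 FPKM for Psmb5.

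The immunoproteasome subunits were present at low levels. Psmb10, which replaces Psmb7, was the highest of them, at bases 105935735 to 105938444 of chromosome 8 in GRCm38. It had 2.85, 3.45 and 3.88 FPKM in the knockout libraries and 2.17, 2.25 and 2.78 FPKM in the heterozygote libraries. All knockout libraries lay above all heterozygote libraries, by a narrow gap between knockout 1 and heterozygote 3. The means were 3.39 ± 0.516 FPKM in knockout and 2.40 ± 0.329 FPKM in heterozygote testes (SD, n = 3 each), and the difference was 0.37 (SE 0.13, 95% interval 0.06 to 0.68). The limma p was 0.0264 and the limma adjusted p 0.868, so the difference did not pass the test. It rests on 92, 102 and 129 reads in the knockout libraries and 61, 71 and 91 reads in the heterozygote libraries. With 1 library left out the difference ran between 0.29 and 0.46. Its unadjusted limma p stayed under 0.05 without knockout 1 or heterozygote 3. It did not without any other library, nor with limma-voom on the recovered reads.

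Psmb8, which replaces Psmb5, had 0.367, 0.548 and 0.769 FPKM in the knockout libraries and 0.400, 0.513 and 0.571 FPKM in the heterozygote libraries. Knockout libraries were both the highest and the lowest, and the difference was 0.06 (SE 0.14, 95% interval −0.27 to 0.38). Psmb9, which replaces Psmb6, had 0.173, 0.362 and 0.350 FPKM in the knockout libraries and 0.0997, 0.310 and 0.270 FPKM in the heterozygote libraries, from 12, 23 and 25 reads in knockout and 6, 21 and 19 reads in heterozygote testes. It fell short of the mean needed for a test, and its groups overlapped. Psmb11, the catalytic subunit of the thymus, had 0, 0 and 0.0321 FPKM in the knockout libraries and 0, 0.0225 and 0.0435 FPKM in the heterozygote libraries. These are 0, 0 and 3 reads in knockout and 0, 2 and 4 reads in heterozygote testes, at or near the 3 reads that a count of 0 allows, which equal 0.0321 to 0.0381 FPKM in these libraries. No difference in Psmb11 was detectable at this depth.

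Each immune subunit was far below the standard subunit of its place. The ratio of Psmb8 to Psmb5 FPKM was 0.00774, 0.00972 and 0.0143 in the knockout libraries and 0.00778, 0.0122 and 0.0125 in the heterozygote libraries. Psmb9 to Psmb6 stood at 0.00268, 0.00630 and 0.00605 in the knockout libraries and 0.00155, 0.00585 and 0.00503 in the heterozygote libraries. For Psmb10 to Psmb7 the ratio was 0.129, 0.164 and 0.189 in the knockout libraries and 0.0943, 0.112 and 0.135 in the heterozygote libraries. The groups overlapped in all 3 ratios. Per principal transcript, Psmb10 to Psmb7 was 0.0570, 0.0724 and 0.0836 in the knockout libraries and 0.0416, 0.0493 and 0.0596 in the heterozygote libraries. Psmb8 to Psmb5 was then 0.0130 to 0.0241 in knockout and 0.0131 to 0.0211 in heterozygote testes, and Psmb9 to Psmb6 was 0.00310 to 0.00726 in knockout and 0.00179 to 0.00675 in heterozygote testes. On the log2(FPKM + 1) scale they differed by −0.12, 0.002 and 0.37, with exact two-sided permutation p of 0.5, 0.9 and 0.2 and adjusted p of 0.833, 1 and 0.833 over the 5 ratios. Psmb8 and Psmb9 lay under 1 FPKM in every library, so the added 1 dampens their part in these differences. With 0.1 added in place of 1, the groups differed by −0.06, 0.22 and 0.48.

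**Figure D4:**
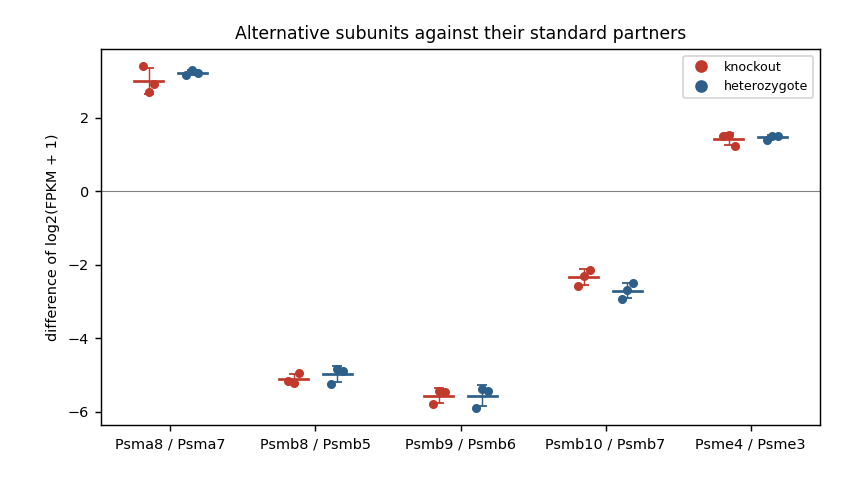
Difference of log2(FPKM + 1) between an alternative subunit and its standard partner in each library (points), with the group mean (wide bar) and SD (error bar, n = 3), knockout left and heterozygote right of each pair. Psma8 and Psme4 lie above their partners in all 6 libraries, the 3 immunoproteasome subunits lie below theirs, and the groups overlap in every pair.

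The promoters of Psmb5 and Psmb8, which fill the same place in the ring at very different levels, are shown beside each other. The Psmb5 window is chr14:54617946-54618245 on the minus strand and the Psmb8 window chr17:34197945-34198244 on the plus strand, from RefSeq in GRCm38.p6. The capitals in Psmb5 mark a match to the antioxidant response element core, TGACNNNGC, the kind of site through which Nfe2l1 drives proteasome genes, at −47 from the start. Psmb8 holds none of the 4 motifs.
Psmb5: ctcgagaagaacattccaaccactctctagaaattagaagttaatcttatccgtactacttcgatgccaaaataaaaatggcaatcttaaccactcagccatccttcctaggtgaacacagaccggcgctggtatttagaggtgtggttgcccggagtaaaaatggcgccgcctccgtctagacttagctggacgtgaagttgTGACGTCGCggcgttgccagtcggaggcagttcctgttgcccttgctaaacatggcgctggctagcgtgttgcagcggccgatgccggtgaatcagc
Psmb8: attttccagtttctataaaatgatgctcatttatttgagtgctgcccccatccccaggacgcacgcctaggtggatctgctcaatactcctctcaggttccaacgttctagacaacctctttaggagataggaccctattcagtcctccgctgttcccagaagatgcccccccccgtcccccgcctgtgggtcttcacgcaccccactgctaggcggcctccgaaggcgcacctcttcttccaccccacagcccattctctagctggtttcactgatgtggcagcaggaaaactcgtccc

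The 4 motifs were searched on both strands in the promoters of 40 of the 48 genes, 43 promoters in all, beside all 32851 promoters of the RefSeq table. The antioxidant response element core was found for Psmb5, Psmb6, Psmc6, Psmd9, Psmd12 and Psme4, in 14% of the proteasome promoters, against 12.4% of all promoters. The interferon-stimulated response element core, GAAA-NN-GAAA, was found for Psmb3, Psmd4, Psmd9, Psme1 and Psmg4, in 11.6% of the proteasome promoters, against 3.44% of all promoters. CCAAT was found in 32.6% of the proteasome promoters and 37.4% of all promoters. The cAMP response element, TGACGTCA, was found in 0% of the proteasome promoters and 1.79% of all promoters. The motifs can overlap one another, and a match describes the letters only.

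The 6 ATPases Psmc1 to Psmc6 form the unfolding motor at the base of the 19S particle. In value 3 were higher and 3 lower in knockout testes, with a median difference of 0.0027. Psmc3, the highest, had 227, 234 and 214 FPKM in the knockout libraries and 239.5, 200.2 and 206 FPKM in the heterozygote libraries, which overlapped, and it was also the gene with the highest mean of all 48. Psmc6, the lowest, had 12.1, 8.64 and 9.75 FPKM in the knockout libraries and 11.8, 12.2 and 12.8 FPKM in the heterozygote libraries. Knockout 2 and 3 lay under every heterozygote library and knockout 1 within their range. The difference was −0.26 (SE 0.13, 95% interval −0.56 to 0.03), with a limma adjusted p of 0.868. With 1 library left out it ran between −0.38 without knockout 1 (limma adjusted p = 0.164) and −0.16 without knockout 2.

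Psmd1 and Psmd2, the scaffold subunits of the base, and Psmd4, one of its ubiquitin receptors, were higher in value in knockout testes by 0.04 to 0.11. Psmd2 had 144, 160.3 and 143 FPKM in the knockout libraries and 144.5, 131 and 139 FPKM in the heterozygote libraries, and the groups overlapped. Psmd1 had 13.3, 14.8 and 12.4 FPKM in the knockout libraries and 13.7, 12.6 and 12.9 FPKM in the heterozygote libraries, again with overlap. The Psmd2 count is uncertain because 31.6% of its words of 31 bases occur in other genes, 29.3% in the pseudogene Gm5422. The genes sharing them had a summed mean of 1.65 FPKM, against 143.6 FPKM for Psmd2. How shared reads were assigned is not known from the labels.

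The lid of the 19S particle holds Psmd14, the enzyme that removes ubiquitin chains from the substrate, and structural subunits around it. Of its 8 genes 5 were higher and 3 lower in value in knockout testes, with a median difference of 0.02. Psmd8 was the highest, with 106, 98.5 and 102 FPKM in the knockout libraries and 106, 96.7 and 91.9 FPKM in the heterozygote libraries. Psmd14 was the lowest, with 12.4, 9.71 and 11.3 FPKM in the knockout libraries and 11.6, 11.2 and 13.2 FPKM in the heterozygote libraries. Both overlapped between the groups. Psmd3, a scaffold subunit of the lid, had 16.1, 18.8 and 20.5 FPKM in the knockout libraries and 17.1, 14.6 and 14.2 FPKM in the heterozygote libraries. Both knockout 2 and knockout 3 were above all heterozygote libraries and knockout 1 under heterozygote 1, a difference of 0.25 (SE 0.12, limma adjusted p = 0.868). Psmd6, another lid subunit, lay at 31.3 to 33.2 FPKM in knockout and 27.9 to 29.9 FPKM in heterozygote testes, without overlap, a difference of 0.15 (SE 0.08, limma adjusted p = 0.868). Psmd7, Psmd11, Psmd12 and Psmd13, the other lid subunits, differed by −0.01 to 0.03.

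Psmd5, Psmd9 and Psmd10 are chaperones that help to assemble the base of the 19S particle. They had mean levels of 2.62 to 6.58 FPKM, below the particle's own subunits, which had 11.2 to 220 FPKM. Psmd10 had 7.38, 5.65 and 5.10 FPKM in the knockout libraries and 7.82, 6.47 and 7.09 FPKM in the heterozygote libraries, so that knockout 2 and 3 were the lowest libraries and knockout 1 lay within the heterozygote range. The difference was −0.22 (SE 0.14, limma adjusted p = 0.868), and between −0.35 without knockout 1 and −0.12 without knockout 3. Psmd5 had 2.78, 2.63 and 2.57 FPKM in the knockout libraries and 2.71, 2.39 and 2.67 FPKM in the heterozygote libraries, with overlap and a difference of 0.03 (SE 0.10). Psmd9 differed by 0.0089, and 25.5% of its exon bases overlap the opposite-strand gene Gm26745, which had a mean of 0.02 FPKM. The labels do not say whether reads were counted by strand.

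The activators cap the core in place of the 19S particle. Psme4, the activator of spermatids, was the highest of the 4, on the plus strand of chromosome 11 at bases 30771726 to 30880361. It had 116, 105 and 79.6 FPKM in the knockout libraries and 112, 115 and 108 FPKM in the heterozygote libraries. Knockout 3 stood apart below the other 5 libraries, knockout 1 was the highest, and the groups overlapped. The means were 100.1 ± 18.6 FPKM in knockout and 112 ± 3.76 FPKM in heterozygote testes (SD, n = 3 each), a difference of −0.18 (SE 0.15, 95% interval −0.52 to 0.17, limma adjusted p = 0.868). Without knockout 3 it was −0.02, and without knockout 1 it was −0.29. Psme3, a nuclear activator, had 40.3, 35.7 and 33.4 FPKM in the knockout libraries and 42.0, 40.3 and 37.6 FPKM in the heterozygote libraries. Knockout 2 and 3 were again the lowest, with overlap through knockout 1 and a difference of −0.13 (SE 0.10).

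The FPKM ratio of Psme4 to Psme3 was 2.87, 2.94 and 2.39 in the knockout libraries and 2.67, 2.86 and 2.87 in the heterozygote libraries. On the log2(FPKM + 1) scale the groups differed by −0.04 (exact two-sided permutation test, p = 1, adjusted p = 1 over the 5 ratios). Psme1 and Psme2 pair in the interferon-inducible activator and were much lower. Psme1 had 4.19, 5.53 and 5.20 FPKM in the knockout libraries and 4.82, 3.03 and 5.56 FPKM in the heterozygote libraries, where heterozygote 2 was the lowest of all. Psme2 had 2.07, 2.42 and 2.33 FPKM in the knockout libraries and 2.69, 1.84 and 2.68 FPKM in the heterozygote libraries, which enclosed the knockout values. Their differences were 0.15 (SE 0.19) and −0.05 (SE 0.14), and 33.5% of the Psme2 words of 31 bases also occur in other genes, chiefly its copy Psme2b. The promoter of Psme4 is given as that of the most abundant activator, in the window chr11:30771525-30771824 on the plus strand from RefSeq in GRCm38.p6. Its capitals mark the antioxidant response element core, on the opposite strand, beginning at −7.
Psme4: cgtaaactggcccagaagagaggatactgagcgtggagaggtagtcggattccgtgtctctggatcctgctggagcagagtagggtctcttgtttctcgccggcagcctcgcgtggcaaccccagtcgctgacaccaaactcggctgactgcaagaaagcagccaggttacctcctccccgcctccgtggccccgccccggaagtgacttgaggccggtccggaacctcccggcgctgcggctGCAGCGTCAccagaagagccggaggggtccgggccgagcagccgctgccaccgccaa

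Psmf1, an inhibitor of the core in vitro, had 61.4, 46.2 and 40.4 FPKM in the knockout libraries and 65.9, 63.1 and 46.7 FPKM in the heterozygote libraries. The lowest libraries were knockout 2 and 3, with heterozygote 3 next above them, and the groups overlapped because knockout 1 lay above heterozygote 3. The difference was −0.25 (SE 0.19, limma adjusted p = 0.868), and with 1 library left out it ran between −0.41 without knockout 1 (limma adjusted p = 0.268) and −0.12 without knockout 3. Without heterozygote 1 it was −0.16, and without heterozygote 3 it was −0.40.

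The chaperones Psmg1 to Psmg4, which guide the building of the alpha ring, were all higher in value in knockout testes, with a median difference of 0.21. Psmg2 had 30.9, 29.4 and 30.6 FPKM in the knockout libraries and 30.2, 27.0 and 26.0 FPKM in the heterozygote libraries, where heterozygote 1 lay above knockout 2. Psmg3 was far lower, with 0.950, 0.658 and 1.03 FPKM in the knockout libraries and 0.483, 0.504 and 0.648 FPKM in the heterozygote libraries. Every knockout library lay above every heterozygote library, but knockout 2 and heterozygote 3 came close. The difference was 0.28 (SE 0.13, 95% interval −0.03 to 0.58, limma adjusted p = 0.868), from 33 to 58 reads in knockout and 23 to 36 reads in heterozygote testes. With 1 library left out it ran between 0.22 and 0.37. It was 0.69 with limma-voom on the recovered reads (limma-voom adjusted p = 0.899). The unadjusted p of Psmg3 was under 0.05 with limma-voom and, in limma, without knockout 2, and no fit passed the adjustment. Psmg1 and Psmg4 differed by 0.13 and 0.29 (for Psmg4, 0.46 without heterozygote 1 and 0.19 at the lowest with 1 library left out), and neither passed the test (limma adjusted p = 0.868 for both).

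The order of the libraries was counted over the set. Knockout 2 and 3 held the 2 highest values for 10 of the 46 tested genes, 21.7%, against 17.1% of all tested genes. They held the 2 lowest values for 8 of the 46, 17.4%, against 17.6% of all tested genes. The 10 were Psma7, Psmb3, Psmb4, Psmb5, Psmb10, Psmc4, Psmd3, Psmd6, Psmd7 and Psmg4, and the 8 were Psma4, Psma6, Psmc2, Psmc6, Psmd10, Psme3, Psme4 and Psmf1. The shares are near those of the whole table. Without knockout 1, 4 of the 46 were higher and 4 lower at an unadjusted limma p under 0.05, where 7.82% of all tested genes were higher and 10.4% lower. With any other library left out, 0 to 2 were higher and 0 lower. Over all tested genes those fits gave 0.949% to 1.4% higher and 1.42% to 2.29% lower. No gene of the set passed an adjusted p under 0.05 in any fit with 1 library left out.

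The same libraries differed in markers of cell types. The level of a marker list is the mean of log2(FPKM + 1) over its tested genes, given relative to the mean of the 6 libraries. The elongated spermatid list lay at 0.34, −0.37 and −0.61 in the knockout libraries and 0.48, 0.28 and −0.12 in the heterozygote libraries, and 14 of its 14 genes were lower in value in knockout testes. For round spermatids the level was 0.16, −0.19 and −0.25 in knockout and 0.21, 0.07 and −0.01 in heterozygote testes, with 8 of 10 genes lower in value. For spermatocytes it was 0.06, −0.15 and −0.09 in knockout and 0.07, 0.04 and 0.07 in heterozygote testes, with 12 of 15 genes lower. The spermatogonia list lay at −0.11, 0.03 and 0.21 in knockout and −0.06, −0.10 and 0.02 in heterozygote testes, highest in knockout 3, with 6 of 10 genes higher in value. The Sertoli cell list ran the other way, at −0.15, 0.22 and 0.32 in knockout and −0.23, −0.15 and −0.01 in heterozygote testes, with 11 of 11 genes higher in value. The leukocyte list lay at −0.13, 0.24 and 0.32 in knockout and −0.25, −0.18 and 0.0081 in heterozygote testes, with 11 of 11 tested genes higher in value. Its 12 listed genes had mean levels of 0.141 to 17.0 FPKM. The mean of the Leydig list was lowest in knockout 3, at 0.25, 0.12 and −0.64 in knockout and 0.03, 0.16 and 0.09 in heterozygote testes, with 6 of 7 genes lower in value. Its genes did not all share that order: Hsd3b1, an enzyme of steroid synthesis named after its values were seen, was highest in knockout 3.

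The spermatocyte and spermatid lists were thus low, and the Sertoli and leukocyte lists high, in knockout 2 and 3. Among the proteasome genes named above for these libraries, Psma6, Psmc6, Psmf1, Psmd10 and Psme3 were low and Psmb10, Psma7 and Psmd3 high. The shares of such genes were near those of all tested genes. In whole testis, fewer cells of a type and less RNA per cell cannot be told apart. Knockout 2 and 3 also had the highest shares of small and ribosomal RNA, 0.33% and 0.28%, against 0.09% in knockout 1 and 0.10% in each heterozygote library. The part of these cell types and of library quality in the proteasome values was not tested. The mean level of the 14 standard 20S genes was 0.04, −0.05 and 0.03 in the knockout libraries and 0.09, −0.10 and −0.02 in the heterozygote libraries, on the same scale, a mean over 6 genes higher and 8 lower in value. That of the 17 subunits of the 19S particle was 0.03, −0.0024 and 0.0024 in knockout and 0.04, −0.05 and −0.02 in heterozygote testes. No marker of the 7 lists was at 0 in all libraries, so every list, those of the germ cells included, was detected in this testis RNA.

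**Figure D5:**
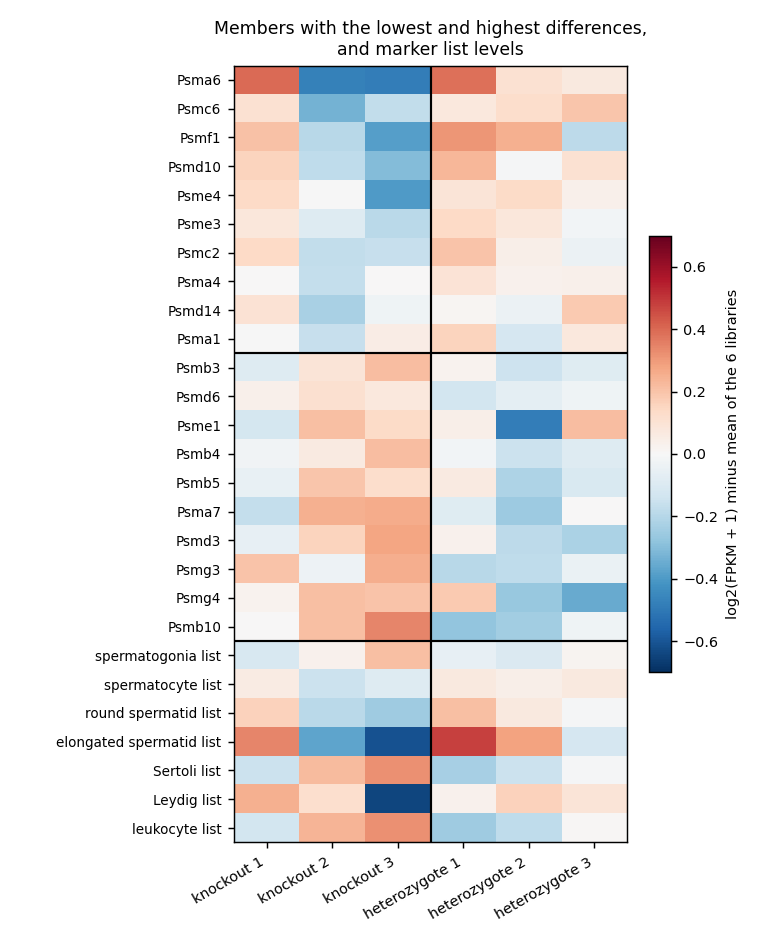
log2(FPKM + 1) minus the mean of the 6 libraries, for the 10 proteasome genes with the lowest and the 10 with the highest difference (rows above the second line, a choice made on these values) and for the 7 marker lists, knockout libraries left of the vertical line and heterozygote libraries right of it. Knockout 1 resembles heterozygote 1 in Psma6 and in the elongated spermatid list, which lay at 0.34 in knockout 1 and 0.48 in heterozygote 1.

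Genes that work with the proteasome were measured in the same way, in 4 lists, and none was called in either direction. Of 13 tested proteasome partners 5 were higher and 8 lower in value in knockout testes, with a median difference of −0.03. Zfand2b, a proteasome-associated zinc finger protein, had 1.16, 1.43 and 1.82 FPKM in the knockout libraries and 1.13, 0.731 and 0.969 FPKM in the heterozygote libraries, a difference of 0.34 without overlap (limma adjusted p = 0.868). Uchl5, a deubiquitinating enzyme of the 19S particle, had 15.1, 10.4 and 11.3 FPKM in the knockout libraries and 15.4, 14.2 and 15.5 FPKM in the heterozygote libraries, with knockout 2 and 3 lowest and a difference of −0.29 (SE 0.14). Its partner Adrm1, a ubiquitin receptor, overlapped, with 22.4, 23.7 and 25.9 FPKM in the knockout libraries and 24.6, 23.0 and 20.7 FPKM in the heterozygote libraries. Pomp, which helps the beta subunits to assemble, had 5.72, 4.74 and 5.28 FPKM in the knockout libraries and 6.46, 5.45 and 6.32 FPKM in the heterozygote libraries, also with overlap and a difference of −0.18 (SE 0.11).

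Of 16 genes for ubiquitin and its shuttle factors 10 were higher and 6 lower in value, with a median difference of 0.03. Ubqln4, a shuttle that carries ubiquitinated proteins to the proteasome, had 11.0, 11.5 and 11.3 FPKM in the knockout libraries and 9.97, 11.1 and 9.93 FPKM in the heterozygote libraries, a difference of 0.12 (SE 0.09) with overlap through heterozygote 2 and knockout 1. It did not pass the test (limma adjusted p = 0.868). Of the 6 regulators of proteasome genes 4 were higher and 2 lower in value. Nfe2l1, the transcription factor that raises proteasome genes when the proteasome is impaired, had 17.6, 24.4 and 17.9 FPKM in the knockout libraries and 17.5, 16.8 and 17.2 FPKM in the heterozygote libraries. Only knockout 2 was clearly apart, though the groups did not overlap, and the difference was 0.19 (SE 0.13, limma adjusted p = 0.868). Ngly1, the enzyme that removes sugar chains from Nfe2l1 protein, had 38.7, 29.98 and 23.8 FPKM in the knockout libraries and 40.1, 36.1 and 32.1 FPKM in the heterozygote libraries, a difference of −0.24 (SE 0.18) with overlap.

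Of 11 tested interferon and antigen presentation genes 8 were higher and 3 lower in value, with a median difference of 0.15. Irf1, a transcription factor that switches on the immunoproteasome genes, had 0.652, 1.22 and 1.15 FPKM in the knockout libraries and 0.612, 0.625 and 0.746 FPKM in the heterozygote libraries. Knockout 2 and 3 were high and knockout 1 lay among the heterozygotes, a difference of 0.26 (SE 0.15, limma adjusted p = 0.868). Tap1, a peptide transporter whose gene lies beside Psmb9 and overlaps 5.8% of its exon bases on the opposite strand, had 0.444, 0.885 and 0.674 FPKM in the knockout libraries and 0.389, 0.552 and 0.551 FPKM in the heterozygote libraries. The groups overlapped through knockout 1. Ifngr2, a subunit of the interferon gamma receptor, had 7.99, 8.54 and 7.22 FPKM in the knockout libraries and 7.13, 6.21 and 7.29 FPKM in the heterozygote libraries, with overlap. B2m, the light chain of class I molecules, was lower in value, with 48.2, 43.5 and 45.5 FPKM in the knockout libraries and 45.9, 52.7 and 56.9 FPKM in the heterozygote libraries, a difference of −0.17 (SE 0.11) with overlap. None of these genes passed the test.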

How the data were processed

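Per the labels, testis RNA was extracted with Trizol and sequenced as SMARTER mRNA-Seq libraries. The values are FPKM as the authors deposited them, in a table covering all 6 libraries. The submitters' processing notes list the builds GRCm38 and mm10. The labels name no aligner, counter or strand setting.

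From log2(FPKM + 1), limma 3.58.1 (R 4.3.3) compared the groups with a mean-variance trend and no covariate, in the 19168 genes whose mean reached 0.5 FPKM, with Benjamini-Hochberg adjustment. The code was tested on simulated data. This scale understates differences of low genes. FPKM times gene length gave whole reads for 100% of the values, within 0.001, which limma-voom used as an alternative. Ratios were compared by exact permutation. Word sharing and transcript lengths came from GENCODE M21, which holds all 48 genes, 46 with identical coordinates, and promoters from RefSeq. Replicates share numbers across groups, and pairing was tried as an alternative. Every proteasome gene is named. Values per library are given for Psma7, Psma8, the activators, Psmb5 to Psmb11, the 3 lowest p-values on each side, the highest and lowest gene of each class, and a few pathway genes. The gene family to describe, the lists and this rule were chosen with earlier results of these data known, though the family's name rule uses no value. 1 pathway gene that the rule names is not reported here. The Paaf1 entry of the partner list was not analysed here.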

Additional observations from a re-analysis of the deposited data

How the results depend on the processing

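Among the 46 tested proteasome genes none was called at an adjusted p under 0.05 under any of 13 alternatives (smallest adjusted p 0.148, for Psma6 without knockout 1). Median-of-ratios rescaling, 1 of the 13, is hardly a separate check, because the deposited values are already scaled by such size factors. It changed the libraries by factors of 0.998 to 1.013 only. Across all genes the alternatives gave 0 calls, except limma-voom on the recovered reads, with 1 gene called lower and 0 higher. The sign of the difference held for 29 of the 46 under every alternative and turned under at least 1 for 17, none of which differed by more than 0.15 in size. Psma2, Psma5, Psmb7, Psmc5, Psmd11 and Psmd13 turned to 0.00049, 0.02, 0.02, 0.0096, 0.0085 and 0.01 with limma-voom. Psma5, Psmb7, Psmc5 and Psmd13 turned to 0.02, 0.02, 0.05 and 0.0018 with quantile normalization, and Psma5 and Psmb7 to 0.0023 and 0.0025 with median-of-ratios rescaling. The cause was not tested.

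With 1 library left out at a time, the range was −0.06 to 0.03 for Psma2, −0.13 to 0.01 for Psma3, −0.04 to 0.06 for Psma5, −0.05 to 0.09 for Psma8, −0.04 to 0.06 for Psmb7, −0.04 to 0.15 for Psmb8, −0.01 to 0.06 for Psmc1, −0.04 to 0.11 for Psmc4, −0.08 to 0.06 for Psmc5, −0.02 to 0.10 for Psmd1, −0.04 to 0.0096 for Psmd11, −0.03 to 0.07 for Psmd12, −0.05 to 0.02 for Psmd13, −0.01 to 0.05 for Psmd5, −0.10 to 0.11 for Psmd9, −0.05 to 0.30 for Psme1 and −0.17 to 0.02 for Psme2. The median over the proteasome genes ranged from −0.0011 to 0.05. The ratio of Psmb9 to Psmb6 moved from 0.002 to 0.22 with a pseudocount of 0.1. It turned to −0.06 with quantile normalization and −0.0022 with median-of-ratios rescaling, and ranged from −0.16 to 0.12 with 1 library left out. That of Psme4 to Psme3 ranged from −0.10 to 0.05.

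With the replicate block, 0 genes were called, and Psmb10, Psma6 and Psmf1 were under an unadjusted p of 0.05 in limma (adjusted p 0.662). These are 1 higher and 2 lower of the 46, where 2.11% of all tested genes were higher and 5.25% lower. Libraries of the same number had correlations of 0.29, 0.04 and 0.20 in their deviations from the group means. Knockout 1 and 3 each correlated best with the heterozygote of the same number, and knockout 2 with heterozygote 3 (0.17). These correlations cannot settle whether the numbers are pairs. The labels do not say so, and the main fit leaves pairing out. Depth limits Psmb8, Psmb9, Psmb11 and Psmg3, which had at most 58 reads in any library.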

Other observations

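Genes near the proteasome that the name rule left out were measured as well. Psme2b, a near-identical copy of Psme2, had 4.49, 7.51 and 6.13 FPKM in the knockout libraries and 4.72, 5.55 and 6.28 FPKM in the heterozygote libraries, with overlapping groups. By the deposited gene length it lay above Psme2 in every library. The size of the gap depends on the length, since Psme2 has 1764 bases in the table and 962 in its principal transcript. Per principal transcript the Psme2 mean over the 6 libraries was 4.29 FPKM, still below the 5.78 FPKM of Psme2b. The order in single libraries on that scale is not given here. Psmc3ip, a meiotic recombination factor named for its binding to Psmc3, had 65.4, 42.2 and 51.2 FPKM in the knockout libraries and 53.7, 44.9 and 60.2 FPKM in the heterozygote libraries, a difference of −0.01 (SE 0.18) with overlap. Pithd1 had 21.2, 20.4 and 20.02 FPKM in the knockout libraries and 22.2, 20.3 and 19.9 FPKM in the heterozygote libraries, a difference of −0.01 (SE 0.08) with overlap. Counting by words of 31 bases, 13 of the 48 proteasome genes shared none with other genes and 9 shared more than 20%. The 9 were Psma3, Psma4, Psma5, Psmb3, Psmb5, Psmc1, Psmd2, Psmd9 and Psme2, and among them Psma5 shared 61.0% and Psmc1 32.2%.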
